A study of Mus musculus with 17 samples.

Results

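The 9 genes described here are transcription factors of the eye field and of retinal progenitor cells, namely Pax6, Six3, Six6, Lhx2, Rax, Otx2, Meis1, Meis2 and Mitf. They were chosen by name, with earlier results of these data known. Their values were taken from the expression files of mNRPCs, a line of neural retinal progenitor cells from the retina of adult C57BL/6 mice. All 9 were among the 18836 genes listed in at least 1 library, and 4 of them, Pax6, Six3, Meis1 and Meis2, reached a mean of at least 1 FPKM over the 17 libraries (fragments mapped to a gene, scaled by its transcript length and by library size), as 11258 genes did. The libraries were a day 0 control, labelled with no treatment, and cells kept for 1, 3, 5 or 7 days in 1 of 4 media. BM was the basic medium, DMEM/F12 with N2 and B27 supplements and beta-mercaptoethanol. B was BM with bFGF, a fibroblast growth factor, C was BM with CHIR99021, an inhibitor of GSK-3, and BC was BM with both. Each treatment and day had 1 library, and nothing in the labels separates cultures, so no value has a replicate of its own. Before the experiment the line was grown with both bFGF and CHIR99021, and day 0 is described both as cells in BM and as cells before treatment.

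In the embryo, the eye field of the anterior neural plate expresses a set of transcription factors that includes Pax6, Six3, Six6, Rax and Lhx2, and retinal progenitors keep many of them. Meis1 and Meis2 are TALE homeodomain proteins that act with PBX partners and regulate Pax6 in eye development. Otx2 and Mitf act in the pigment epithelium, and Otx2 also acts in photoreceptor and bipolar precursors. FGF signals help to set the choice between neural retina and pigment epithelium in the optic vesicle, where FGF favours neural retina.

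Of the 9 members, 6 could be followed, while Six6, Rax and Otx2 were close to absent. The median without bFGF was 168 FPKM for Pax6 and 59.5 FPKM for Six3, Meis1 lay lower, and Lhx2 and Mitf had at most 2.35 and 0.54 FPKM. In FPKM all 6 were above their day 0 level in every BM and C library. The median gene was also above day 0 there, by 0.13 to 0.19 on the log2(FPKM + 1) scale. As an average over days 1 to 7, all 6 were called lower in B and BC than in BM and C (adjusted p under 0.05). Of all genes tested, 41.3% were called lower, and 29.3% in the fit with no filter that held Lhx2 and Mitf. On day 1 Mitf had 0.1 FPKM in C, against 0.09 on day 0 and 0.19 in BC. The log2 change with bFGF ran from -0.50 for Six3 to -1.95 for Pax6 and -2.23 for Lhx2.

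The promoters of the 4 members above the FPKM minimum are shown. These genes changed in the same direction with bFGF over days 1 to 7, as did Lhx2 and Mitf, whose windows are not printed. RefSeq (GRCm38.p6) gives promoter windows, from 250 bases before to 50 bases after a start site, for 8 of the 9 members, 15 windows in all, and 2 start sites for Pax6. The 250 bases before each start site are printed 5′ to 3′ on the gene's strand, and capitals mark a match to 1 of 6 motifs searched on both strands. The motifs were TGACAG (the core bound by MEIS and TGIF proteins), TAATTA (a homeodomain core), TAATCC (the OTX core), CACGTG (an E-box), TGACTCA (AP-1) and CCGGAA (the ETS core). No motif overlapped another in these windows.
Pax6, first start site, chr2:105668646-105668895, plus strand: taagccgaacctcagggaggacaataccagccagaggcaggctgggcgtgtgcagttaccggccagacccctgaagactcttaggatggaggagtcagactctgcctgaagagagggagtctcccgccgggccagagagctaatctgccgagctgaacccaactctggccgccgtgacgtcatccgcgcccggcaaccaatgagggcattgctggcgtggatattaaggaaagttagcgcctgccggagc
Pax6, second start site, chr2:105682213-105682462, plus strand: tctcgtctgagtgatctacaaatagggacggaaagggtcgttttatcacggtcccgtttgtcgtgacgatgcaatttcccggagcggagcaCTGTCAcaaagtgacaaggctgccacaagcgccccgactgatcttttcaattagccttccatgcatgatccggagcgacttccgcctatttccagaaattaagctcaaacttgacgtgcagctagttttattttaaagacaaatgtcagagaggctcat
Six3, chr17:85620584-85620833, plus strand: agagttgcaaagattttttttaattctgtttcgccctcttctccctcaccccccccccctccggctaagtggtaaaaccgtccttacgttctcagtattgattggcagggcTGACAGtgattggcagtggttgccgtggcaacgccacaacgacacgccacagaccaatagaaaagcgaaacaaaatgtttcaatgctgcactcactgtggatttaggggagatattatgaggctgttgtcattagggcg
Meis1, chr11:19018970-19019219, minus strand: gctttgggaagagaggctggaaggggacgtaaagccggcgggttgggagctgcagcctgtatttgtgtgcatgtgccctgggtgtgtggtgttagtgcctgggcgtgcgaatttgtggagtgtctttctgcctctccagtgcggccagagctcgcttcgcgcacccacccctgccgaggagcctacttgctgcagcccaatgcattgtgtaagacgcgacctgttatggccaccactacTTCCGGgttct
Meis2, chr2:116064620-116064869, minus strand: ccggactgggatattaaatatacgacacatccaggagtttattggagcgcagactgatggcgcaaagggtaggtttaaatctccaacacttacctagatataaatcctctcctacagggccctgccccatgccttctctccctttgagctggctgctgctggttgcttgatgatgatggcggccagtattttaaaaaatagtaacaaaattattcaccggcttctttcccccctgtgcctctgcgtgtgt
TGACAG, in its reverse complement CTGTCA, began 159 bases before the second Pax6 start site, and TGACAG began 139 bases before the Six3 start site. It is a frequent motif, present in 19.2% of 32851 mouse promoter windows of the same length. The Meis1 window held CCGGAA as TTCCGG, which 14.9% of all windows hold. The first Pax6 window and the Meis2 window held none of the 6. Among the windows not printed, 1 of Six6 and 1 of 3 of Mitf also held TGACAG, both Lhx2 windows held no motif, TAATTA was found in 2 of 4 Otx2 windows and 1 Mitf window, and TAATCC in 1 window of each of these genes. TAATTA occurs in 5.29% of all windows, TAATCC in 7.06%, CACGTG in 7.15% and TGACTCA in 5.2%. These are matches of letters only, and no binding was measured.

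The libraries were of even depth, with 17571973 to 19428744 expected counts and 14820 to 15882 genes listed. Their composition was not even, because the TMM scaling factors of B and BC on days 5 and 7 were 0.757 to 0.818 and those of the other 13 libraries 0.958 to 1.13. On the unscaled log2(FPKM + 1) scale the median gene was lower in B than in BM by -0.03 on day 1 and by -0.46 on day 7 (BC minus C, -0.50). The log2 changes of the edgeR fit with TMM are relative to that shift, which TMM removes. FPKM values and the counts of pairs lower with bFGF are unscaled and include it. The share of all genes lower in every pair was not counted. As for cell identity, Sox2, a factor of neural progenitors, had 27.7 FPKM on day 0. Of 16 photoreceptor genes, 15 stayed under 1 FPKM in every library, and the leukocyte genes summed to at most 2.78 FPKM. Among the genes that define retinal progenitors, Pax6 and Six3 were well above 1 FPKM, while Rax and Six6 were at or near 0.

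**Figure D1:**
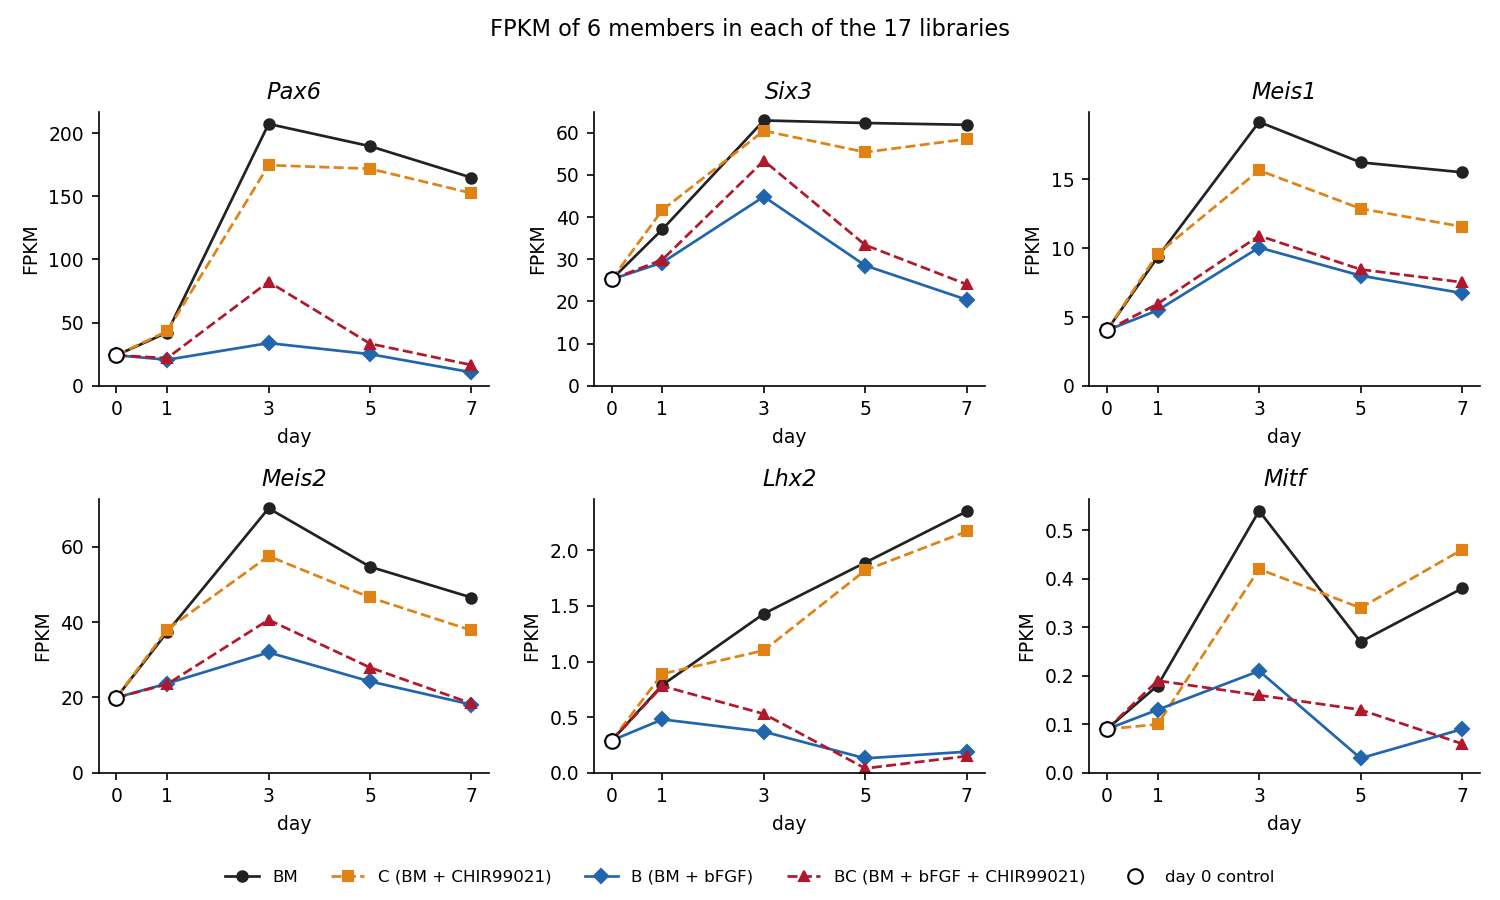
FPKM (vertical axis, linear, from 0) of 6 members against day (horizontal axis), with 1 point per library, joined within each treatment and starting at the day 0 control (open circle). From day 3 the BM and C points of Pax6, 152 to 207 FPKM, lie above those of B and BC, 10.7 to 82.4 FPKM.

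Pax6 (chr2:105668896-105698410, GRCm38.p6), a paired-domain and homeodomain factor needed for eye development, had 24.2 FPKM on day 0. In BM it had 42.2 FPKM on day 1, 207 on day 3, 190 on day 5 and 165 on day 7, and in C it had 43.3, 175, 172 and 152 FPKM on the same days. In B it had 20.6, 33.8, 25.1 and 10.7 FPKM, and in BC 21.9, 82.4, 33.4 and 16.5 FPKM. On each day both libraries with bFGF lay below both libraries without it. Across days the 2 groups overlapped, because the BC library of day 3 lay above the day 1 libraries without bFGF.

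In the edgeR fit across the 11258 genes, Pax6 was lower with bFGF, with a log2 change of -1.95 ± 0.15 (SE) over days 1 to 7, a 3.85-fold difference (adjusted p = 7.4e-08), and Pax6 was lower in 8 of 8 pairs of libraries that differ in bFGF only. The change was larger in magnitude on later days, from -0.93 ± 0.28 on day 1 (adjusted p = 0.0581, not called) through -1.69 ± 0.29 on day 3 and -2.19 ± 0.29 on day 5 to -2.99 ± 0.30 on day 7 (adjusted p = 1.75e-06). The difference between day 7 and day 1 was itself past the threshold (-2.06 ± 0.40, adjusted p = 0.000736). Only 2.63% of the 11258 genes tested had a lower log2 change over days 1 to 7. A fall is no rarity here, since 41.3% of all genes tested were called lower with bFGF and 40.5% higher, and the 4 members tested were all among the lower ones. With library totals in place of TMM, 70.6% of the called genes were lower, against 50.5% with TMM. The members' median log2 change was -0.59, and that of all genes was -0.0036. Without B or without BC of day 3 the day 1 value passed the threshold (-0.95, adjusted p = 0.00513, and -0.92, adjusted p = 0.00631), and with library totals in place of TMM it did too (-1.01, adjusted p = 0.0468).

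Six3 (chr17:85613608-85626191), a homeodomain factor that represses Wnt genes in the anterior neural plate, had 25.2 FPKM on day 0. It had 37.1 to 41.7 FPKM on day 1 and 55.4 to 62.9 FPKM on days 3 to 7 in BM and C. In B it had 29.2, 44.9, 28.5 and 20.4 FPKM on days 1, 3, 5 and 7, and in BC 29.9, 53.4, 33.4 and 24.1 FPKM. The libraries without bFGF stayed on a plateau from day 3, while those with bFGF were highest on day 3 and ended near the day 0 level. bFGF lowered Six3 over days 1 to 7 by a log2 change of -0.50 ± 0.05 (adjusted p = 2.11e-06; lower in 8 of 8 pairs). The log2 change was -0.92 ± 0.11 on day 7 (adjusted p = 6.61e-06) and -0.52 ± 0.11 on day 5, and it was not called on day 1 (-0.30 ± 0.11, adjusted p = 0.0972) or day 3 (-0.26 ± 0.11, adjusted p = 0.0572). With library totals in place of TMM scaling the Six3 log2 change over days 1 to 7 was -0.79, and the day 1 and day 3 changes passed the threshold (-0.38 and -0.36). The day 3 change also passed it without BC of day 3 (-0.35, adjusted p = 0.0421) and without BC or B of day 7 (-0.26, adjusted p = 0.0452 and 0.0454).

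Meis1 (chr11:18880428-19019651) and Meis2 (chr2:115861264-116067537) were both higher in BM and C than in B and BC on each day, at different levels. Meis1 had 4.03 FPKM on day 0, 9.36 to 9.6 FPKM on day 1 and 11.6 to 19.2 FPKM on days 3 to 7 in BM and C. In B and BC it had 5.49 and 5.96 FPKM on day 1, 10.1 and 10.9 on day 3, 8.01 and 8.46 on day 5, and 6.74 and 7.53 on day 7. Within each day the libraries with bFGF were the lower ones, and all of them were above day 0. Meis2 had 19.95 FPKM on day 0, then 37.3, 70.2, 54.7 and 46.5 FPKM on days 1, 3, 5 and 7 in BM and 38.0, 57.5, 46.5 and 37.8 FPKM in C. In B it had 23.7, 31.9, 24.2 and 18.1 FPKM, and in BC 23.5, 40.6, 27.9 and 18.4 FPKM. Meis2 without bFGF was highest on day 3, and with bFGF it ended just below its day 0 level in FPKM, a direction that turns with TMM scaling (log2 change 0.19 ± 0.17, not called).

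The log2 change with bFGF over days 1 to 7 was -0.54 ± 0.07 for Meis1 (adjusted p = 1.27e-05) and -0.64 ± 0.07 for Meis2 (adjusted p = 1.92e-06), and both were lower in 8 of 8 pairs. Both were called on day 1, at -0.67 ± 0.14 for Meis1 (adjusted p = 0.0149) and -0.60 ± 0.14 for Meis2 (adjusted p = 0.0183), when 4.48% of all genes were called lower. On day 7 the log2 changes were -0.48 ± 0.14 and -0.71 ± 0.14. The difference between day 7 and day 1 was 0.19 ± 0.20 for Meis1 (adjusted p = 0.422) and -0.11 ± 0.19 for Meis2 (adjusted p = 0.644), so that no change in the size of the bFGF effect was detected for either. For Meis2 that difference depended on the scaling, and with library totals it was -0.56 (adjusted p = 0.0242). The day 1 calls of both genes were lost without any 1 of the 4 libraries of that day (adjusted p from 0.0513 to 0.098 for Meis1 and from 0.0874 to 0.137 for Meis2), with log2 changes of -0.60 to -0.79 for Meis1 and -0.59 to -0.66 for Meis2. Meis1 also lost its day 5 call without BM or B of that day (-0.29 and -0.35) and its day 7 call without BM or B of that day (-0.31 for both), and Meis2 its day 5 call without B of day 5 (-0.41, adjusted p = 0.0507).

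Of the 4 members tested with the filter, 2 were called lower with bFGF on day 1, 3 on day 3 and all 4 on days 5 and 7. The share of all genes called lower was 4.48% on day 1, 25.0% on day 3, 38.6% on day 5 and 39.6% on day 7. For day 7 minus day 1, 2 of the 4 were called, Pax6 and Six3, and 34.1% of all genes were called in that direction. With library totals the lower genes went from 41.6% to 63.4% of the genes called on day 1, and from 50.5% to 72.9% on day 7.

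**Figure D2:**
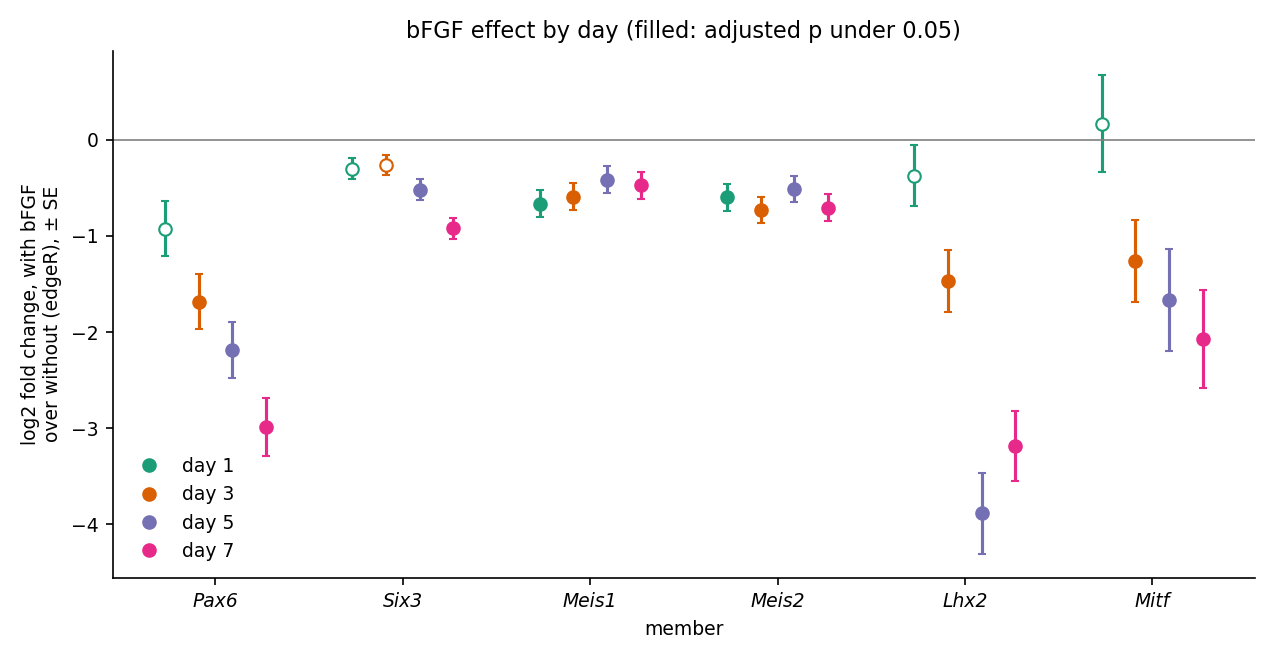
The log2 fold change with bFGF over without (vertical axis, edgeR) of 6 members (horizontal axis) on days 1, 3, 5 and 7. Bars are standard errors, and filled points passed an adjusted p of 0.05. Pax6 goes from -0.93 on day 1 to -2.99 on day 7, while Meis1 and Meis2 stay between -0.42 and -0.73.

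Lhx2 (chr2:38339271-38369737), a LIM-homeodomain factor needed for optic vesicle patterning, was a low gene with a wide bFGF difference. It had 0.29 FPKM on day 0. In BM it had 0.79, 1.43, 1.89 and 2.35 FPKM on days 1, 3, 5 and 7, and in C 0.89, 1.1, 1.82 and 2.17 FPKM. In B it had 0.48, 0.37, 0.13 and 0.19 FPKM and in BC 0.78, 0.53, 0.04 and 0.15 FPKM. It was the one of the 6 whose level in BM and in C was highest on day 7, and the counts behind these values were 2 to 98 reads per library. In the fit with no filter on low values (18775 genes, of which 29.3% were called lower and 27.2% higher), bFGF lowered Lhx2 over days 1 to 7 by a log2 change of -2.23 ± 0.18 (adjusted p = 3.87e-09; lower in 8 of 8 pairs). The log2 change was -0.37 ± 0.32 on day 1 (adjusted p = 0.658, not called), -1.47 ± 0.32 on day 3, -3.89 ± 0.42 on day 5 and -3.18 ± 0.36 on day 7. Of all genes in that fit, 3.06% were called lower on day 1, 15.1% on day 3, 26.8% on day 5 and 27.3% on day 7, and for day 7 minus day 1, where Lhx2 had -2.81 ± 0.50 (adjusted p = 0.000144), it was 21.1%.

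Mitf (chr6:97807002-98021360), the bHLH-zip factor of pigment cells, was lower still, at 0.09 FPKM on day 0. It had 0.1 to 0.54 FPKM (median 0.36) in the 8 libraries without bFGF and 0.03 to 0.21 FPKM (median 0.13) in the 8 with it, on 2 to 47 reads per library. The groups overlapped, and Mitf was lower with bFGF in 7 of 8 pairs. In the fit with no filter its log2 change over days 1 to 7 was -1.21 ± 0.25 (adjusted p = 0.000361), with 0.17 ± 0.51 on day 1 (adjusted p = 0.981, not called) and -2.07 ± 0.51 on day 7 (adjusted p = 0.00198). Of 18 pigment cell and pigment epithelium genes, 12 stayed under 1 FPKM in every library, Dct and Rpe65 among them, and Tyr reached 1.31 FPKM. The highest of the list were Gpnmb, a lysosomal glycoprotein that is also expressed outside pigment cells, with up to 771 FPKM, Rdh5 with up to 35.4 FPKM and Mertk with up to 11.1 FPKM. The day 3 and day 5 calls of Mitf, at -1.27 ± 0.43 and -1.66 ± 0.53, were lost by DESeq2 on day 3 (adjusted p = 0.0783), without BC, BM or C of day 3 (-0.99, -1.03 and -1.48) and without B or C of day 5 (-0.90 and -1.42), and without BC of day 5 the day 5 value was -3.22.

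Six6, Rax and Otx2 were at the floor of the measurement. Six6, the close relative of Six3, was listed in 3 libraries at 0.01 to 0.03 FPKM, on at most 2 reads. Rax, an early factor of the eye field, was listed in 3 libraries at 0.03 to 0.07 FPKM, on at most 2 reads, and Otx2 in 2 libraries at 0.03 FPKM, on 1 read each. At this depth no difference between groups could be seen for these 3 genes.

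Set against day 0, the same fit showed a rise of all 4 tested members without bFGF by day 3, when 37.1% of all genes were called higher. In these comparisons day 0 was entered as without CHIR99021, though its medium is unclear. The average CHIR99021 effect was taken out of the later days, so the values are not plain means of the 2 media. Pax6 rose by a log2 change of 2.69 ± 0.40 on day 3 (adjusted p = 5.37e-05), 2.59 ± 0.39 on day 5 and 2.38 ± 0.39 on day 7 (adjusted p = 0.000144), while its day 1 value of 0.50 ± 0.36 was not called. Six3 rose by 0.41 ± 0.14 on day 1 (adjusted p = 0.0296) and by 1.01 to 1.09 on days 3, 5 and 7. Both genes were thus at their highest by day 3 and stayed close to that level. Meis1 rose by 1.17 ± 0.19, 2.01 ± 0.19, 1.73 ± 0.19 and 1.57 ± 0.19 on days 1, 3, 5 and 7. Meis2 rose by 0.75 ± 0.17 on day 1, by 1.54 ± 0.18 on day 3 and by 0.89 ± 0.18 on day 7. For these 2 genes the day 3 value was the highest of the 4 days. On day 1, 3 of the 4 were called, with 20.5% of all genes called higher, and on days 5 and 7 all 4, with 35.9% and 35.3%. With library totals the higher genes went from 44.1% to 68.3% of those called on day 1 and from 49.0% to 59.5% on day 7. Without C of day 1 the Six3 call of that day was lost (0.40, adjusted p = 0.0709), and without B of day 3 the day 1 value of Pax6 was called (0.62, adjusted p = 0.0389).

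With bFGF, and with the average CHIR99021 effect taken out in the same way, none of the 4 was called on day 1. On that day 15.6% of all genes were called higher. All 4 were called higher on day 3, when 34.6% of all genes were. Pax6 stood at 1.00 ± 0.37 over day 0 on day 3 (adjusted p = 0.029), Six3 at 0.83 ± 0.14, Meis1 at 1.42 ± 0.19 and Meis2 at 0.81 ± 0.18. On day 5, 3 of the 4 were called, Six3, Meis1 and Meis2, with 34.5% of all genes called higher. By day 7 only Meis1 was still called, with 35.5% of all genes called higher (1.09 ± 0.19, adjusted p = 0.000251), and Pax6 had -0.61 ± 0.35 (adjusted p = 0.136), Six3 0.11 ± 0.14 and Meis2 0.19 ± 0.17. The values of Six3 and Meis2 went as low as -0.22 and -0.11 with library totals or limma. The Pax6 rise on day 3 rested on BC of that day, without which it was 0.40 (adjusted p = 0.177), and without B of that day it was 1.57. With library totals in place of TMM the day 7 value of Pax6 was -0.92 and passed the threshold below day 0 (adjusted p = 0.0319), and the day 5 value of Six3 went from 0.49 to 0.26 and was no longer called. The day 5 call of Meis2 was lost by limma with either pseudocount (0.40, adjusted p = 0.0629, and 0.38, adjusted p = 0.0667). With library totals the higher genes went from 47.0% to 68.5% of those called on day 1 and from 48.0% to 35.6% on day 7. The day 1 value of Meis1 (0.51 ± 0.19, adjusted p = 0.059) was called without BC of day 7 (adjusted p = 0.0393), B of day 7 (adjusted p = 0.0391) or B of day 3 (adjusted p = 0.0443). The comparisons with and without bFGF share the 1 day 0 library.

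Genes of other cell types also differed from day 0. On day 3 without bFGF, 4 of 6 Müller glia genes were called higher and 1 lower, with 37.1% of all genes called higher. Their median log2 change was 2.73, and that of all genes 0.03. Aldoc, the only astrocyte gene tested, was also higher, and the other 5 stayed under 1 FPKM in every library. Of 8 general neural progenitor genes 2 were called higher and 5 lower (median -2.45), when 4171 of 11258 genes were called lower. Over days 1 to 7 in BM and C, the cell cycle genes Ccnd1, Cdk1 and Mki67 had medians of 123, 8.29 and 9.47 FPKM. On day 0 they had 751, 69.6 and 77.8 FPKM. Msi1, Notch1 and Nes had medians of 5.39, 30.2 and 11.4 FPKM. Their day 0 values were 0.22, 5.49 and 11.0 FPKM. Both tested lens genes and both tested endothelial and pericyte genes were called higher on day 3 without bFGF. Of the 12 Müller glia genes listed, 5 stayed under 1 FPKM in every library, Rlbp1, Slc1a3, Kcnj10 and Car2 among them. Aqp4, also not tested, reached 1.53 FPKM. With bFGF on day 7, when Pax6, Six3 and Meis2 were not called, all 6 tested Müller glia genes were higher (median 2.52), with 35.5% of all genes called higher. The part of these changes in the levels of the members was not tested.

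In the fit with no filter, Lhx2 without bFGF rose over day 0 on each day, by a log2 change of 1.51 ± 0.47 on day 1 (adjusted p = 0.0231) and 2.81 ± 0.45 on day 7 (adjusted p = 3.4e-05). The share of all genes called higher there was 12.3%, 23.2%, 22.5% and 22.1% on days 1, 3, 5 and 7. With bFGF its log2 change from day 0 was not called on any day, from 1.13 ± 0.49 on day 1 to -1.38 ± 0.64 on day 5, when 8.65%, 21.4%, 20.6% and 21.8% of all genes were called higher on days 1, 3, 5 and 7. Mitf without bFGF was called higher on day 3 (2.17 ± 0.63, adjusted p = 0.00735) and day 7 (1.94 ± 0.64, adjusted p = 0.0172), and with bFGF on none. The day 1 call of Lhx2 was lost by DESeq2 (adjusted p = 0.0503) and without BM (1.63, adjusted p = 0.0527) or C of day 1 (1.46, adjusted p = 0.0623), and with bFGF its day 5 value was called without B of day 5 (-2.22, adjusted p = 0.047). The day 3 call of Mitf was lost without BM of day 3 (1.90, adjusted p = 0.056). Its day 5 value of 1.49 ± 0.65 was called without BC or B of day 5 (both 1.57), with library totals (1.81) and by limma.

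**Figure D3:**
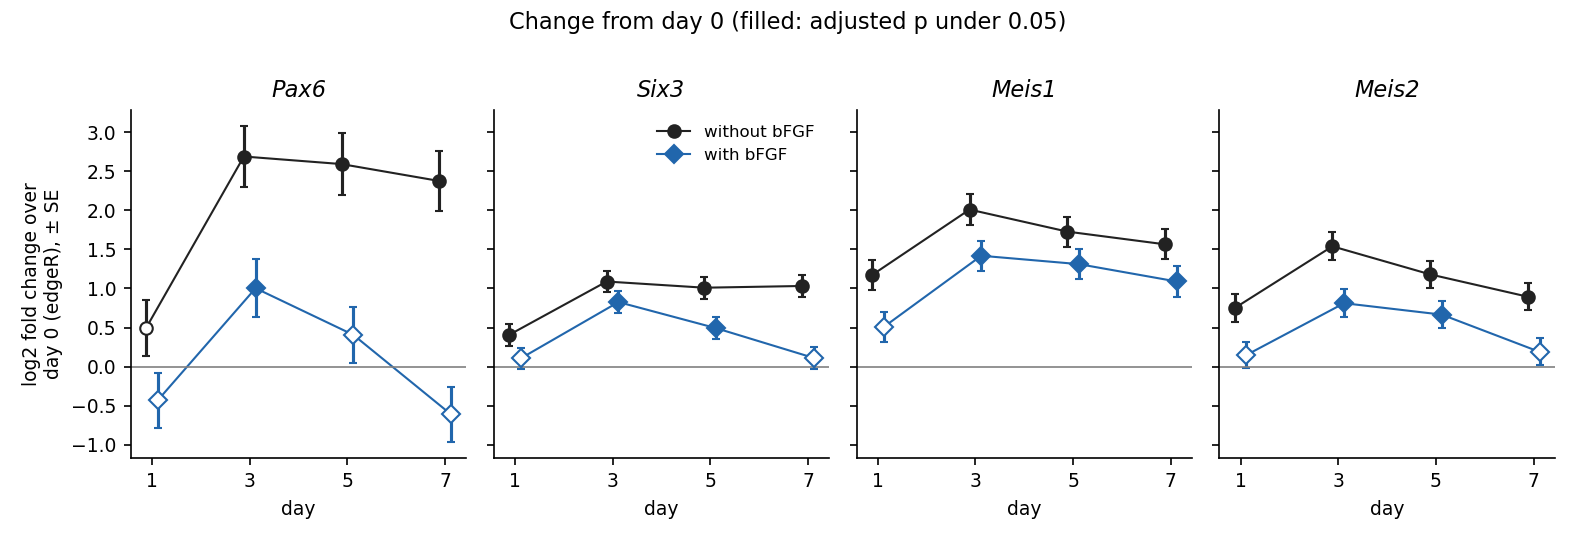
The log2 fold change over the day 0 library (vertical axis, edgeR, with standard errors) of 4 members on days 1, 3, 5 and 7 (horizontal axis), without bFGF (circles) and with bFGF (diamonds), filled where the adjusted p was under 0.05. Pax6 without bFGF stays at 2.38 or above from day 3, and with bFGF it goes from 1.00 on day 3 to -0.61 on day 7.

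CHIR99021, averaged over days and over media with and without bFGF, moved none of the 4 members past the threshold, when 9.69% of all genes were called higher and 9.8% lower. Its log2 changes were 0.23 ± 0.14 for Pax6 (adjusted p = 0.272), 0.08 ± 0.05 for Six3, -0.10 ± 0.07 for Meis1 and -0.02 ± 0.07 for Meis2. With no filter, Lhx2 had 0.06 ± 0.16 and Mitf 0.04 ± 0.24. The averages covered opposite signs. On day 1, C was above BM in 4 of 4 members (log2 ratios of FPKM from 0.03 to 0.17) and BC above B in 3 of 4. On days 3 to 7, C was below BM in 12 of 12 gene and day combinations of the 4 members, by log2 ratios of FPKM from -0.06 to -0.42. BC was above B in 12 of 12, from 0.02 to 1.28. Each day gave 1 pair of libraries without bFGF and 1 with it. The 4 members moved together over the libraries (r from 0.886 to 0.962), so these combinations are not replicates. The share of all genes with the same signs was not counted.

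With the CHIR99021 term fitted separately by bFGF, a split chosen after seeing the data, Pax6 was higher with CHIR99021 in the media with bFGF (log2 change 0.60 ± 0.14, adjusted p = 0.0165, with 8.77% of genes called higher). Without bFGF it had -0.11 ± 0.13 (adjusted p = 0.684, with 4.41% of genes called lower). The difference between the 2 was 0.72 ± 0.20 and was not called (adjusted p = 0.132, with 0.56% of genes called higher), so a dependence of the CHIR99021 effect on bFGF was not shown for Pax6. On day 3 Pax6 had 82.4 FPKM in BC and 33.8 FPKM in B, a ratio of 2.44, and on days 5 and 7 the ratios were 1.33 and 1.54. Without BC or B of day 3 the value with bFGF was 0.37 (adjusted p = 0.0484 and 0.0429), and without BC or B of day 7 it was 0.57 and lost its call (adjusted p = 0.0625). Without BC or B of day 1 the difference was 0.89 and passed the threshold (adjusted p = 0.0159 and 0.0158). Six3 with bFGF stood at 0.19 ± 0.07 (adjusted p = 0.068) and Meis1 without bFGF at -0.24 ± 0.08 (adjusted p = 0.0858). Both passed the threshold without a day 1 library, Six3 at 0.23 without BC or B of day 1 (adjusted p = 0.033 and 0.0328) and Meis1 at -0.34 without BM or C of day 1 (adjusted p = 0.0235).

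**Figure D4:**
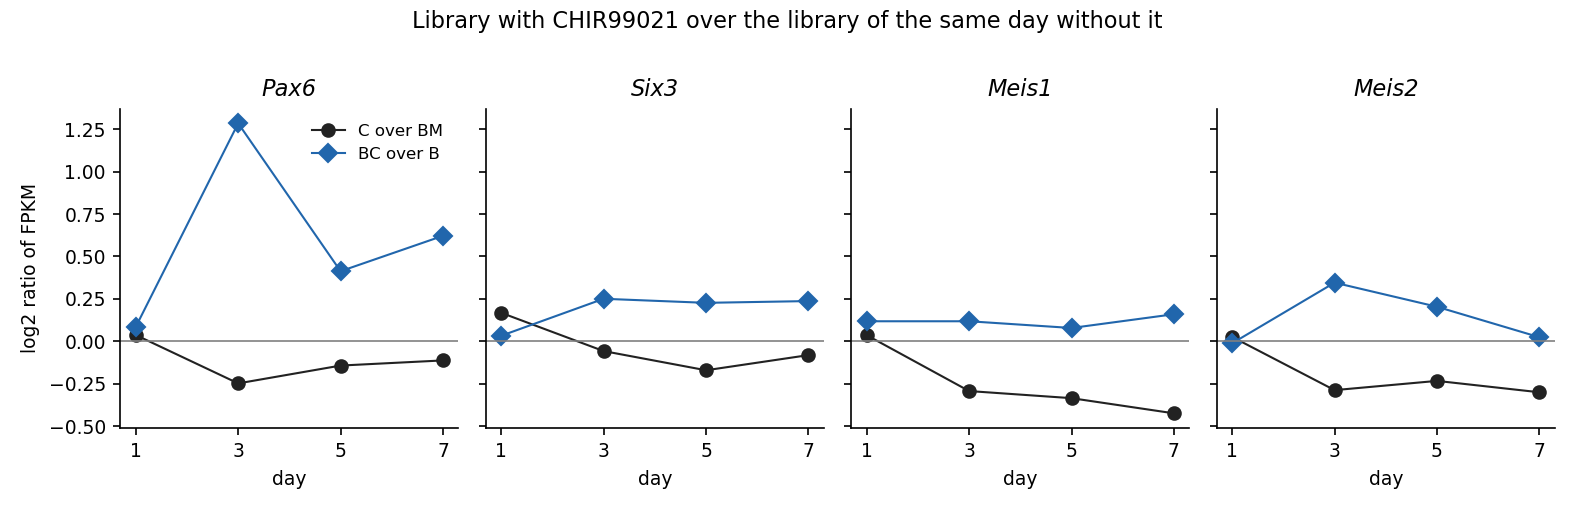
The log2 ratio of FPKM (vertical axis) between each library with CHIR99021 and the library of the same day without it, on days 1, 3, 5 and 7 (horizontal axis), for C over BM (circles) and BC over B (diamonds). On day 1 all circles lie above 0, by at most 0.17. From day 3 the circles lie below 0 and the diamonds above it in all 4 members, and the highest point is Pax6 on day 3, at 1.28.

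The other genes of the pathway moved in both directions with bFGF. Of 26 other transcription factors of retinal progenitors, 13 were tested, and over days 1 to 7 bFGF lowered 9 and raised 2 (median log2 change -0.34, all genes -0.0036), when 41.3% of all genes were called lower and 40.5% higher. With library totals in place of TMM the list had 11 lower and 1 higher. Prox1, a homeodomain factor of horizontal cells and lens, fell by 1.49 ± 0.06 and Nfix by 1.00 ± 0.06. Id3 and Hes1 fell by 0.90 ± 0.10 and 0.90 ± 0.20. Sox2 fell by 0.48 ± 0.09 and Sox9 by 0.31 ± 0.11 on the log2 scale. Id1 rose by a log2 change of 1.42 ± 0.14. The Sox9 call was lost without BC of day 3, 5 or 7, BM of day 1, or C of day 3 or 7 (log2 changes from -0.24 to -0.30, adjusted p from 0.0508 to 0.0742), and in an additive model of treatments and days (adjusted p = 0.245). Nr2e1, Hes5 and Atoh7 stayed at or under 0.08 FPKM throughout.

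Of 36 partners and family members of these factors, 26 were tested, and bFGF lowered 16 and raised 7 (median log2 change -0.33), against 41.3% of all genes called lower and 40.5% higher. With library totals 20 were lower and 4 higher. Tgif1, a TALE repressor that binds the same core as MEIS proteins, rose by a log2 change of 1.32 ± 0.14, opposite to Meis1 and Meis2. Tle1, a Groucho corepressor that binds SIX3, rose by 0.52 ± 0.05 while Tle3 fell by 0.33 ± 0.04. Ldb1 and Ssbp3, cofactors of LIM-homeodomain proteins such as LHX2, fell by 0.34 ± 0.06 and 0.66 ± 0.06. Pbx2, a partner of MEIS proteins, had -0.02 ± 0.04 (adjusted p = 0.705), and with library totals it was called lower (-0.31, adjusted p = 5.84e-05). Lmo4 (0.14 ± 0.04) and Tfe3 (0.25 ± 0.05) were called higher, but with library totals in place of TMM their log2 changes turned to -0.15 and -0.035.

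**Figure D5:**
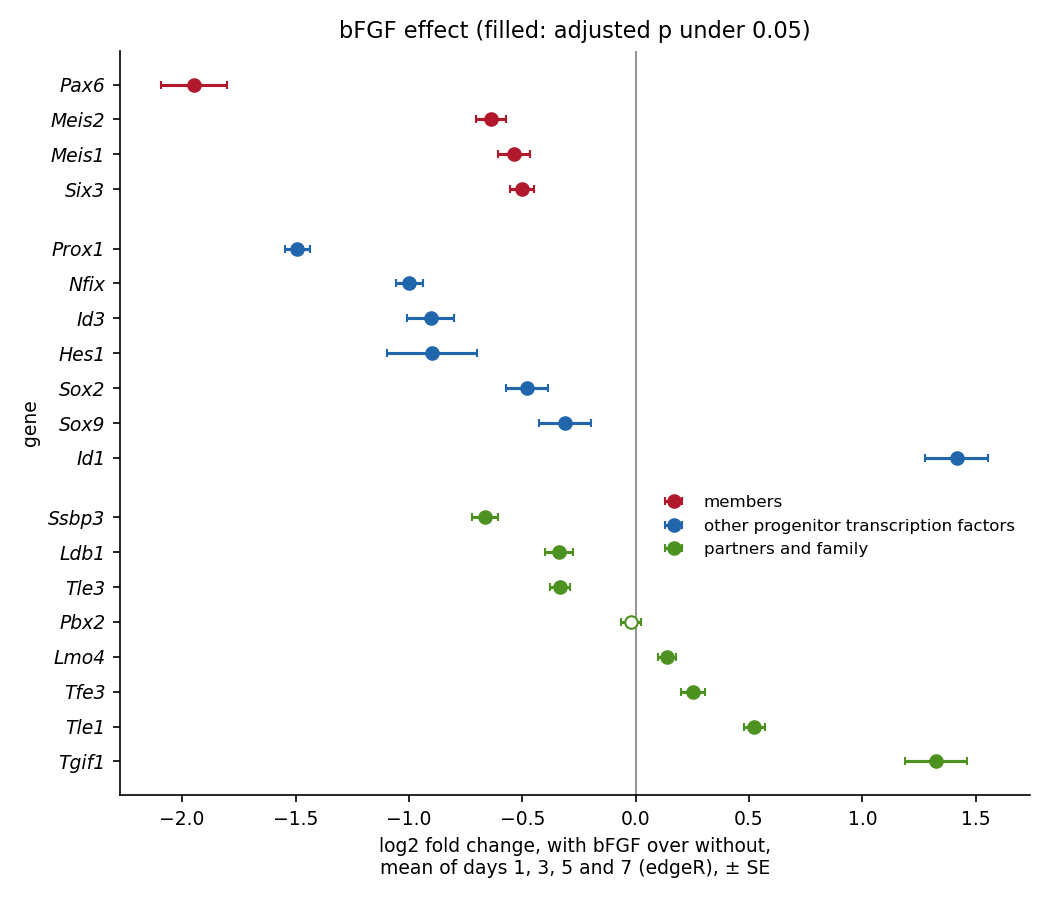
The log2 fold change with bFGF over without, as the mean of days 1, 3, 5 and 7 (horizontal axis, edgeR, with standard errors), for 4 members, 7 other progenitor transcription factors and 8 partners or family members (vertical axis), filled where the adjusted p was under 0.05. Pax6 lies lowest at -1.95 and Id1 highest at 1.42, and Lmo4 and Tfe3 turn below 0 with library totals in place of TMM.

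Genes of other cell types moved with bFGF as well. The 7 lens genes summed to 0.47 FPKM on day 0, to 1.45 to 431 FPKM without bFGF and to 0.13 to 0.77 FPKM with it, and without bFGF Crygs, a crystallin, reached 392 FPKM and Bfsp2, a beaded filament protein, 34.9 FPKM. Cryaa had medians of 0.395 and 0.075 FPKM without and with bFGF, and Foxe3 was listed in no library. The 10 endothelial and pericyte genes summed to 35.9 to 480 FPKM without bFGF and to 9.02 to 41.0 FPKM with it. Without bFGF Acta2 reached 376 FPKM and Pdgfrb 115 FPKM. The endothelial genes Cdh5 and Pecam1 stayed at or under 0.09 FPKM, and the pericyte genes Rgs5, Cspg4 and Kcnj8 at or under 0.28 FPKM. Both tested genes of each of these lists were called lower with bFGF. Of 10 general neural progenitor genes, 8 were tested, and 5 were called higher with bFGF and 2 lower. Among them, the cell cycle genes Mki67 and Cdk1 went the other way, with log2 changes with bFGF of 1.48 ± 0.09 and 1.88 ± 0.08. Among the tested genes of the other lists, 2 of 6 Müller glia genes were higher with bFGF and 3 lower, 2 of 4 pigment genes higher and 1 lower, 1 of 5 fibroblast genes higher and 4 lower, and 2 of 4 ciliary margin genes lower, where 40.5% of all genes were called higher and 41.3% lower. With library totals 1 pigment gene was higher and 2 lower, and all 4 ciliary margin genes were lower. The lists of photoreceptor, bipolar, amacrine and horizontal, ganglion and astrocyte genes had 1 or 2 tested genes each, and the leukocyte list none. The part of these changes in the levels of Pax6, Six3, Meis1 and Meis2 was not tested. In bulk RNA, fewer cells that express a gene and less of its RNA per cell cannot be told apart.

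The genes most like each member over the 17 libraries, by Pearson's r of log2(FPKM + 1) among 11257 others, are given as a description, since the libraries share their days and media. They were Rgma, Gpd1l and Megf9 for Pax6 (r from 0.984 to 0.986), and Fam3a, Sidt2 and Jarid2 for Six3 (0.979 to 0.988). For Meis1 they were Cdk19, Dhrs3 and Sesn1 (0.972 to 0.976), and for Meis2 Tram2, Shroom3 and Setbp1 (0.968 to 0.975). Among the members, Pax6 and Six3 had r = 0.962, Pax6 and Meis2 0.938, and Pax6 and Meis1 0.886.

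The files also give a mean transcript length per gene and library, which shifts when the mix of transcripts does. For Pax6 it was 3680 to 3709 bases in all libraries of days 1 and 3, 3688 to 3701 bases without bFGF on days 5 and 7, and 3723 to 3791 bases with bFGF on those days. For Meis1 it was 2939 to 2954 bases without bFGF on day 7 and 2710 to 2773 bases with it. On day 5 it was 2986 to 3022 bases without bFGF and 2867 to 2956 bases with it. The earlier days did not show this order throughout. On day 1 it was 3110 to 3158 bases without bFGF and 2955 to 3249 bases with it. On day 3 it was 3018 to 3041 bases without bFGF and 3039 to 3190 bases with it. With 1 library per condition these differences of 2 libraries against 2 were not tested.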

How the data were processed

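Poly-A RNA of mNRPCs was sequenced on a BGISEQ-500 in 17 libraries, 1 per treatment and day, and the labels do not say how many cultures or animals they came from. The authors aligned reads with Bowtie 2 and estimated gene expression. Their methods name eXpress, while the submitters' processing notes name RSEM and mm10, and versions and the annotation are not given in the sources used here. The deposited expected counts (estimated counts per gene) and FPKM values, per the file headers, list a gene in a library from 0.01 FPKM, and a gene not listed was set to 0. The library kit is not stated to keep strand, so reads of antisense genes cannot be told apart.

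Expected counts were rounded to whole numbers. Genes with a mean of at least 1 FPKM over the 17 libraries (11258) were tested with edgeR's quasi-likelihood test (edgeR 4.0.16, R 4.3.3) and TMM scaling, with 9 combinations of day and bFGF and 1 term for CHIR99021, Benjamini-Hochberg adjustment and a threshold of 0.05. Day 0 was entered as without CHIR99021. Lhx2 and Mitf fell under that minimum of mean FPKM and were tested in the fit with no filter on low values. The residual spread came from libraries that differ in CHIR99021 only, and the lone day 0 library was assumed to vary like the others, so the p-values measure no spread between replicate cultures. Alternatives were DESeq2 1.42.0, limma 3.58.1 on log2(FPKM + 1) and log2(FPKM + 0.1), library totals in place of TMM, no filter, other model terms and leaving out each library. The CHIR99021 term split by bFGF was added after seeing the data. Promoter windows came from RefSeq, and their orientation was checked against annotated transcripts. The members and gene lists were chosen with earlier results of these data known. Named genes were the members, their 3 most correlated genes and, by highest mean FPKM, up to 8 tested genes of the progenitor and partner lists and up to 4 of each other list. Genes at or near 0 FPKM, and Msi1, Notch1, Nes and Aqp4, were named after their values were seen. Some genes of the lists are counted but not reported here by name.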

Additional observations from a re-analysis of the deposited data

Results flagged for a closer look

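The bFGF effect differed between day 7 and day 1 for 4 of the 6 members tested, by the edgeR contrast of the effects of both days. The log2 difference was -2.06 ± 0.40 for Pax6 (adjusted p = 0.000736) and -0.62 ± 0.15 for Six3 (adjusted p = 0.00339), with 34.1% of the 11258 genes tested called in that direction. In the fit with no filter on low values, where 21.1% of genes were called in that direction, it was -2.81 ± 0.50 for Lhx2 (adjusted p = 0.000144) and -2.24 ± 0.73 for Mitf (adjusted p = 0.0192). Pax6, Six3 and Lhx2 kept their direction and their side of the threshold in every alternative run, from -2.56 to -1.81 for Pax6, from -1.08 to -0.51 for Six3 and from -3.28 to -1.30 for Lhx2. Mitf kept its direction (-2.77 to -0.43) but lost its call without BC of day 1 (-1.94, adjusted p = 0.0992), C of day 1 (-1.81, adjusted p = 0.0944), BC of day 7 (-2.04, adjusted p = 0.0818) or C of day 7 (-2.13, adjusted p = 0.0548). Both days had 4 libraries, and B and BC of day 7 were among the libraries with low TMM factors, whose part in the difference was not tested.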

How the results depend on the processing

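The log2 change with bFGF over days 1 to 7 kept its direction and its side of the threshold for all 6 tested members under every alternative run, and with library totals in place of TMM it was -2.24 for Pax6, -0.79 for Six3, -0.83 for Meis1, -0.93 for Meis2, -2.51 for Lhx2 and -1.49 for Mitf. On the log2(FPKM + 1) scale, where the pseudocount weighs most on low genes, it was -0.92 for Lhx2 and -0.24 for Mitf. Over all comparisons and alternatives, 2081 values of the members kept their direction and side of the threshold, 34 that were never called changed sign, 36 lost a call, 39 gained one and 0 changed sign with a call. Among the other genes, Lmo4 turned from 0.14 to -0.15, Tfe3 from 0.25 to -0.035 and Ccnd2 from 0.06 to -0.23 with library totals, and limma with pseudocounts of 0.1 and 1 gave -0.17 and -0.17, -0.032 and -0.031, and -0.23 and -0.22. The number of genes called for bFGF on day 1 was 1211, and 364 with no CHIR99021 term. The number called for CHIR99021 was 2194, with 38 in an additive model of days 1 to 7 and 822 over media without bFGF only. Leaving out each library in turn gave 8961 to 9244 genes for bFGF over days 1 to 7, 148 to 1784 on day 1 (148 without BC, 204 without BM, 366 without B and 381 without C of that day), 4121 to 5910 on day 3, 7696 to 8672 on day 5, 7987 to 8967 on day 7 and 6581 to 7643 for day 7 minus day 1. For CHIR99021 it gave 1553 to 2199. Against day 0 it gave 3596 to 5698, 7537 to 8570, 7350 to 8377 and 7276 to 8321 genes on days 1, 3, 5 and 7 without bFGF, and 1862 (without B of day 1, from 3744) to 4215, 7604 to 8025, 7698 to 8485 and 7893 to 8514 with it. No paired analysis was possible because each condition had 1 library and thus no replicate numbers to pair by, while the matching of libraries by day and CHIR99021 is held by the terms of the model. The cause of these shifts was not tested. With 1 library per condition, a difference between cultures and a treatment effect cannot be told apart for a single day, and the counts of 2 to 98 reads for Lhx2 and Mitf limit what could be seen there.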
